A study of Homo sapiens with 6 samples.

Results

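The miR-548 family is a group of primate-specific miRNAs whose hairpins derive from a transposable element. On the nCounter human v3 miRNA panel it was taken as every miRNA entry whose name starts with miR-548, together with the entries of miR-570, miR-579 and miR-603, which are held to be relatives from the same element. This gave 34 of the 798 miRNA entries, of which 30 are named miR-548 and 4 belong to the relatives, and 5 of the 34 entries stand for more than 1 miRNA. The RNA came from A549 cells, an established line of lung adenocarcinoma. In 3 libraries the cells had received an siRNA against APE1 (siAPE1), a base excision repair endonuclease whose gene is APEX1. In the other 3 they had received a scramble control siRNA (siSCR). Both were transient transfections with 100 pmol of siRNA followed by 72 h of culture, and 100 ng of total RNA entered the assay. The panel has no probe for APEX1, so the depletion was not measured in these libraries. The paper shows a Western blot for APE1 on extracts of silenced A549 cells. The labels number the replicates without saying that they were separate cultures, although the study calls its replicates biological. The p-values cover the spread among these libraries alone, which may be technical.

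The element behind the family is MADE1, a short nonautonomous relative of the mariner DNA transposons. Its ends are inverted repeats, so that a transcribed copy folds back on itself into a hairpin that the miRNA processing enzymes can cut. Copies are spread over the primate genome, many of them inside the introns of protein-coding genes, and for this reason the family has many members with similar but not identical sequences. A miRNA pairs with its target mRNAs mainly through its seed, the bases 2 to 8 from the 5′ end.

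Of the 41 miRNA names in the 34 entries, 26 were matched to RefSeq sequences (build GRCh38.p14), and these 26 held 21 different seeds. Names with a copy on a chromosome held out of the matching were dropped, so an unmatched name need not be absent from RefSeq. The mature miRNAs on which the results turn are printed 5′ to 3′ with the seed in capitals. The first 4 are both arms of the only 2 hairpins that gave counts clearly above background, and the next 2 passed the background limit in a single library.
miR-579-3p: uUCAUUUGguauaaaccgcgauu
miR-579-5p: uCGCGGUUugugccagaugacg
miR-548ar-5p: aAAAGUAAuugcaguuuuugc
miR-548ar-3p: uAAAACUGcaguuauuuuugc
miR-548q: gCUGGUGCaaaaguaauggcgg
miR-603: cACACACUgcaauuacuuuugc

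The seed AAAGUAA of miR-548ar-5p was the most frequent in the family. It was shared by 4 of the 26 matched names, the others being miR-548j-5p, miR-548y and miR-548ak, which are shown to compare them with miR-548ar-5p. The fourth sequence is that of the entry for miR-548ai and miR-570-5p, which has another seed.
miR-548j-5p: aAAAGUAAuugcggucuuuggu
miR-548y: aAAAGUAAucacuguuuuugcc
miR-548ak: aAAAGUAAcugcgguuuuuga
miR-548ai: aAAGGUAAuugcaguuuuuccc

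Some members shared a short run of bases, which was not compared with the sequence of MADE1. The run AAAGUAAU occurred in 5 of the 26 matched members, and its reverse complement AUUACUUU in 3 others, such as miR-603. Among all 2370 mature human miRNAs of the RefSeq table, either run occurred in 29 (1.22%), and 26 of the 29 belonged to the family by name. The 2370 include the family, and neither arm of MIR579 nor miR-548ar-3p held a run. Only mature sequences were searched, and in the MIR579 hairpin printed below AAAGUAAU lies across the start of miR-579-5p. The members were also rich in A and U, with a median of 63.6% against 47.8% over the whole table, and a range of 40.9% for miR-579-5p to 77.3% for miR-548g-3p.

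Both hairpins with signal hold an inverted repeat, as a hairpin that folds back on itself must. It was not compared with the ends of MADE1 or with other hairpins. They are printed with the mature arms in capitals.
MIR579: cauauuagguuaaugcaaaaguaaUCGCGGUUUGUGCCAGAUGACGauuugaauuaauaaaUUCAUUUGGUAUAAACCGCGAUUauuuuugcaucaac
MIR548AR: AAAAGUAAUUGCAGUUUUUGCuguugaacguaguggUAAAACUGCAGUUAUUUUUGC
The longest stretch that is repeated as its exact reverse complement was 12 bases in MIR579 and 9 bases in MIR548AR. MIR579 lies at chr5:32394378-32394475 on the minus strand, inside the bounds of ZFR, which encodes a zinc finger RNA-binding protein and runs on the same strand. MIR548AR lies at chr13:114244505-114244561 on the plus strand, inside the bounds of CDC16 on the same strand, which encodes a subunit of the anaphase-promoting complex. The mature miR-548q lies at chr10:12725325-12725346 on the minus strand, inside the bounds of CAMK1D but on the opposite strand to that kinase gene. The mature miR-603 lies at chr10:24275745-24275766, inside the bounds of KIAA1217 on the same strand. Whether these positions are exonic or intronic was not resolved here.

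The libraries held between 312152 and 331524 counts in siAPE1 and between 370087 and 488407 in siSCR. Among replicates of a group the correlation of log2 levels across miRNAs was 0.987 to 0.996. Of the miRNA markers listed for epithelial cells, the type A549 belongs to, 3 of 9 were above background (miR-182-5p, miR-183-5p and miR-200b-3p), with summed scaled counts of 477 to 590 in siAPE1 and 687 to 800 in siSCR. None of 5 blood markers and none of 5 markers of muscle, neuron or liver were above background, and neither were 4 of 5 pluripotency and 2 of 3 mesenchymal and endothelial markers. The exceptions were miR-302d-3p and miR-126-3p. The mesenchymal and endothelial list summed to 465 to 520 scaled counts in siAPE1 and 620 to 905 in siSCR, and the pluripotency list to 494 to 663 in siAPE1 and 415 to 536 in siSCR.

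Background was set by the 8 negative controls, probes with no target in human RNA. Their mean was 31.2, 28.1 and 27.5 raw counts in siAPE1 replicates 1 to 3 and 24.5, 29.2 and 26.1 in siSCR replicates 1 to 3. A limit of the mean plus 2 SD lay at 75.8, 63.9 and 63.3 raw counts in siAPE1 and at 53.1, 70.6 and 68.0 in siSCR. One negative control, NEG_C, was the highest in every library, with 83, 66 and 65 raw counts in siAPE1 and 57, 77 and 77 in siSCR, while the next highest gave 36, 37 and 35 in siAPE1 and 30, 35 and 26 in siSCR. The limit therefore depended on a single probe, and without it the limit fell to between 40.4 and 42.7 in siAPE1 and between 27.7 and 38.3 in siSCR.

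Most of the family could not be told from background in A549 cells. Only miR-579-3p and miR-548ar-5p exceeded the limit in at least 3 of the 6 libraries, and both exceeded it in all 6. These 2 of 34 entries compare with 152 of all 798 miRNA entries (19%). They were also the only entries that exceeded the highest negative control in at least 3 libraries. Another 3 entries passed the limit in a single library each, miR-548q in siAPE1 replicate 1, miR-603 in siSCR replicate 2 and miR-548v in siSCR replicate 1. The remaining 29 never passed it, and their raw counts ran from 8 to 64.

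**Figure D1:**
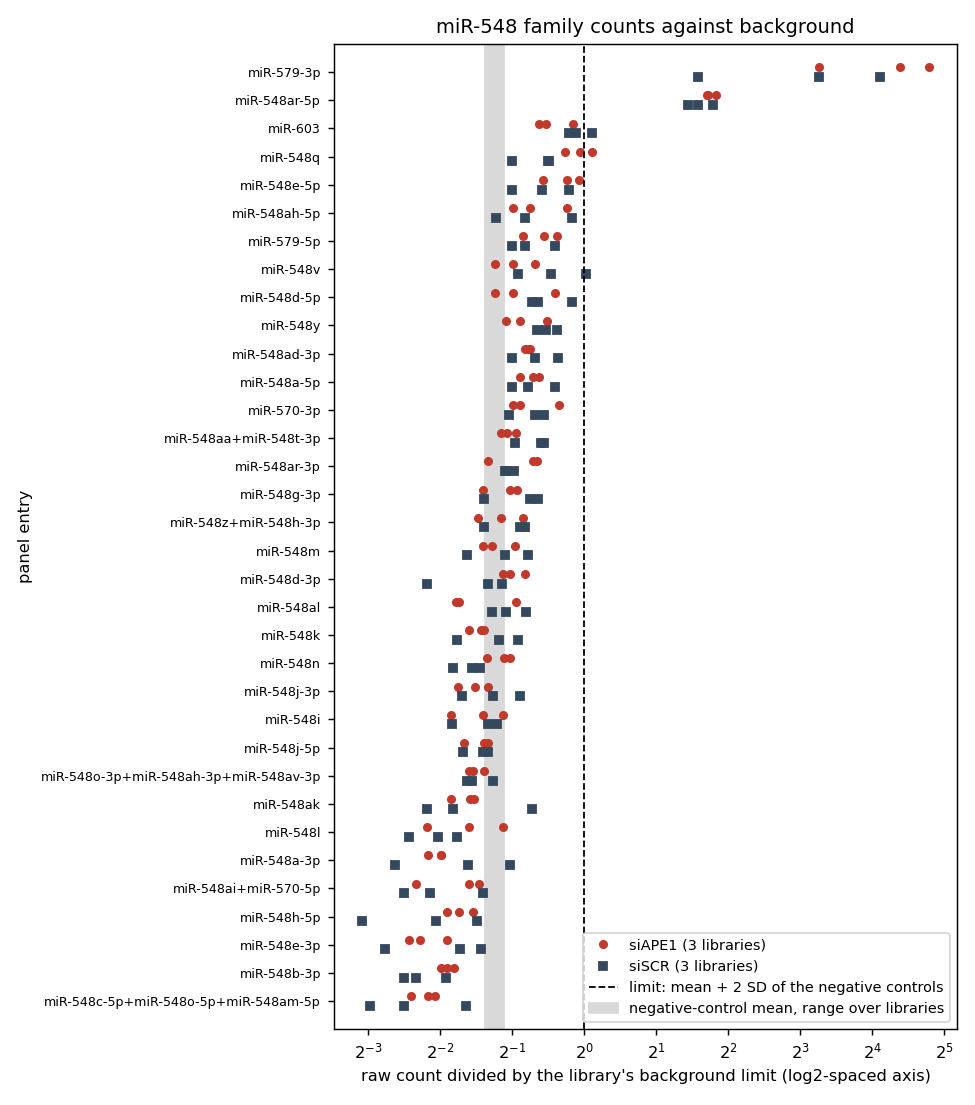
Raw count of each of the 34 entries divided by the background limit of its library (x axis, log2 spacing), with siAPE1 libraries as circles and siSCR libraries as squares. The dashed line is the limit, the grey band is the range of the negative-control mean over libraries, and only miR-579-3p and miR-548ar-5p lie to the right of the line in all 6 libraries.

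The 32 entries other than these 2 had a median raw count of 33, 24.5 and 29.5 in siAPE1 replicates 1 to 3 and 29, 33 and 26 in siSCR replicates 1 to 3. The 646 miRNA entries of the whole panel that did not reach the limit in at least 3 libraries had medians of 28, 24 and 25 in siAPE1 and 25, 29 and 23 in siSCR. Depending on the library, between 13 and 18 of the 34 members in siAPE1 and between 12 and 17 in siSCR were below the mean of the negative controls. With the limit taken without NEG_C, 14 members passed in at least 3 libraries, against 289 of all entries (36.2%), and 5 passed in all 6. These 5 were miR-579-3p, miR-548ar-5p, miR-548q, miR-548e-5p and miR-579-5p, and 17 members still passed in none.

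Other sets of repeat-derived or primate miRNAs on the panel gave other shares. In the chromosome 19 cluster, a large primate-specific group active mainly in placenta, 1 of 41 entries was above the limit in at least 3 libraries. Of miRNAs that arose from other transposons, among them LINE2, MIR and Alu, 11 of 37 were. In the comparison of siAPE1 with siSCR the single entry of the chromosome 19 cluster was called higher. Of the 11 entries from other transposons none was called higher and 6 were called lower. Of the 152 miRNAs tested, 9.87% were called higher and 50.7% lower.

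miR-579-3p, known as a repressor of BRAF in melanoma, had the widest spread between replicates of all miRNAs above background. Its raw counts were 2100, 1341 and 606 in siAPE1 replicates 1 to 3, against 159, 676 and 1175 in siSCR replicates 1 to 3. The groups overlapped, since siAPE1 replicate 3 was below siSCR replicates 2 and 3. Even the lowest library was well above its limit of 53.1, and counting error was small beside the differences. The exact 95% Poisson interval was 559 to 656 for siAPE1 replicate 3 and 135 to 186 for siSCR replicate 1, and such intervals cover counting error only.

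After scaling of the libraries by their positive controls and housekeeping mRNAs, miR-579-3p averaged 1446 ± 727 scaled counts in siAPE1 and 658 ± 609 in siSCR (mean ± SD, n = 3 each). The coefficient of variation (CV, the SD as a percentage of the mean) was 50.2% in siAPE1 and 92.5% in siSCR, in both groups the highest of the 152 miRNAs above background. Without siAPE1 replicate 3 the CV in siAPE1 was 31.0%. The median CV of the 152 was 12.3% in siAPE1 and 11.0% in siSCR, and the second highest was 38.2% in siAPE1 and 46.4% in siSCR. Between its highest and lowest library miR-579-3p differed 2.96-fold within siAPE1 and 9.44-fold within siSCR, where the median of the 152 was 1.28-fold in siAPE1 and 1.24-fold in siSCR.

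**Figure D2:**
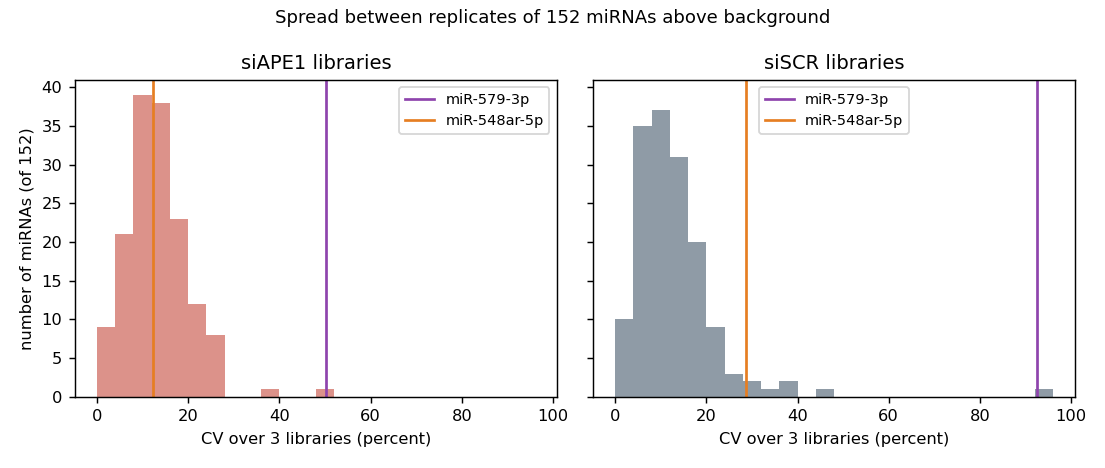
Number of miRNAs (y axis) by CV over 3 libraries in percent (x axis), for the 152 miRNAs above background, in siAPE1 libraries on the left and siSCR libraries on the right. Vertical lines mark miR-579-3p at 50.2% and 92.5%, the highest in both groups, and miR-548ar-5p at 12.3% and 28.7%.

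The difference in miR-579-3p between the groups was smaller than this spread could resolve. Its log2 fold change was 1.14 ± 0.98 (SE), with an adjusted p of 0.380 by the quasi-likelihood test of edgeR, which fits all 152 miRNAs together. Over the other settings and left-out libraries the adjusted p ran from 0.130 to 0.689. The largest fold change, 2.16 on the log2 scale, was obtained without siSCR replicate 3, and the smallest, 0.66, without siSCR replicate 1. The excess over the negative-control mean was 1414 ± 727 scaled counts in siAPE1 and 634 ± 605 in siSCR (SD, n = 3 each; exact two-sided permutation p = 0.2, where 3 libraries against 3 allow no p below 0.1). A spike-in probe for a plant miRNA gave 116, 71 and 66 raw counts in siAPE1 replicates 1 to 3 and 53, 53 and 86 in siSCR replicates 1 to 3. It too was highest in siAPE1 replicate 1, lowest within siAPE1 in replicate 3 and highest within siSCR in replicate 3. But it was equal in siSCR replicates 1 and 2, where miR-579-3p gave 159 and 676. In these 2 libraries the spike-in was below the background limit, and in the others it was above. The probe is 1 of 5 spike-in probes on the panel and the only one looked at, and its part in the result was not tested.

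The opposite arm of the same hairpin was too near background to show whether it followed miR-579-3p. miR-579-5p gave 42, 49 and 43 raw counts in siAPE1 and 40, 40 and 34 in siSCR, below the limit in every library. In the library with the lowest miR-579-3p, siSCR replicate 1, miR-579-5p was 1.63 times the negative-control mean, and in that with the highest, siAPE1 replicate 1, it was 1.34 times.

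Of the 2 members above background, which were the only ones tested in the filtered fit, miR-548ar-5p was called higher in siAPE1 than in siSCR, and the call depended on the scaling. It gave 270, 210 and 206 raw counts in siAPE1 replicates 1 to 3 and 144, 244 and 204 in siSCR replicates 1 to 3, and siSCR replicate 1 stood below the other 5 libraries. Relative to the mean of the negative controls the counts were 8.64, 7.47 and 7.49-fold in siAPE1 and 5.88, 8.34 and 7.81-fold in siSCR, so that the groups overlapped. The scaled counts averaged 251 ± 31.0 in siAPE1 and 180 ± 51.6 in siSCR (SD, n = 3 each), with a CV of 12.3% in siAPE1 and 28.7% in siSCR. In siSCR this was the seventh highest CV of the 152 miRNAs. The order of the groups in spread turned with positive controls alone, where the CV was 18.8% in siAPE1 and 12.4% in siSCR, and without siSCR replicate 1 the CV in siSCR was 16.8%. In siAPE1 it was 7.92% without replicate 2.

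The log2 fold change of miR-548ar-5p was 0.49 ± 0.17 (SE, edgeR, adjusted p = 0.00915 at a threshold of 0.1). Among the 152 miRNAs tested, 15 were called higher in siAPE1 (9.87%) and 77 lower (50.7%), with a median log2 fold change of -0.34. When the libraries were scaled by positive controls alone the median of all tested miRNAs moved to -0.75, with 6 called higher and 128 lower, and miR-548ar-5p changed by 0.10 with an adjusted p of 0.574. With TMM factors, which assume that most tested miRNAs do not change, 47 were called higher and 46 lower, and miR-548ar-5p changed by 0.87 (adjusted p = 0.000376). Without siSCR replicate 1 its fold change was 0.29 (adjusted p = 0.238). The excess over background was 219 ± 29.4 scaled counts in siAPE1 and 156 ± 47.8 in siSCR (exact permutation p = 0.2).

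**Figure D3:**
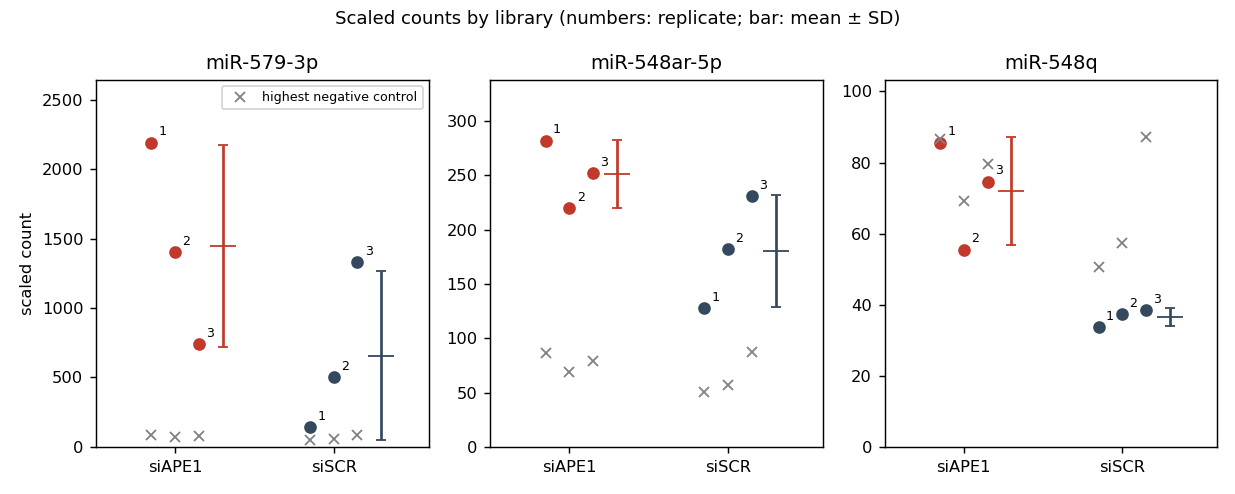
Scaled counts (y axis) of miR-579-3p, miR-548ar-5p and miR-548q in 3 siAPE1 and 3 siSCR libraries, numbered by replicate, with the mean ± SD to the right of each group and the highest negative control of each library as crosses. The groups overlap for miR-579-3p and miR-548ar-5p, while miR-548q separates them but stays below the highest negative control in all 6 libraries.

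Of the MIR548AR hairpin, too, only 1 arm was above background. miR-548ar-3p gave 30, 39 and 40 raw counts in siAPE1 and 27, 33 and 32 in siSCR, always below the limit.

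The panel entries closest to miR-548ar-5p in sequence did not share its level. miR-548ai and miR-570-5p, which have the same mature sequence and share a run of 15 bases with miR-548ar-5p, gave 15, 21 and 23 raw counts in siAPE1 and 20, 16 and 12 in siSCR. Those with the same seed were also at background. miR-548j-5p gave 30, 20 and 24 raw counts in siAPE1 and 20, 22 and 27 in siSCR. miR-548ak gave 21, 22 and 21 in siAPE1 and 32, 20 and 15 in siSCR. miR-548y gave 53, 30 and 34 in siAPE1 and 41, 49 and 43 in siSCR. Closer still, 20 of the 21 bases of miR-548ar-5p also occur without a gap in miR-548g-5p, miR-548x-5p and miR-548aj-5p, which have no entry of their own on the panel, so their levels are not known here and their part in the counts was not tested.

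miR-548q was the only member near background with every siAPE1 library above every siSCR library on raw counts, on scaled counts and with positive controls alone. It gave 82, 53 and 61 raw counts in siAPE1 replicates 1 to 3 and 38, 50 and 34 in siSCR replicates 1 to 3. On raw counts miR-548b-3p and miR-579-5p also separated upward, which made 3 members, and 1 member separated downward, where 3.63% of all entries separated upward and 19.7% downward. miR-548q passed the limit only in siAPE1 replicate 1, and was below NEG_C in all 6 libraries. Relative to the mean of the negative controls it stood at 2.62, 1.88 and 2.22-fold in siAPE1 and 1.55, 1.71 and 1.30-fold in siSCR. Its excess over that mean was 40.0 ± 13.5 scaled counts in siAPE1 and 12.1 ± 3.28 in siSCR (SD, n = 3 each; exact permutation p = 0.1, the smallest possible).

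miR-603, reported to repress the DNA repair gene MGMT in glioblastoma, did not separate the groups. Its raw counts were 68, 44 and 41 in siAPE1 and 49, 76 and 59 in siSCR. miR-548v gave 47, 27 and 32 in siAPE1 and 54, 51 and 36 in siSCR, again with overlap. In a fit of all 798 entries without a filter on low counts, the log2 fold change was 0.02 ± 0.19 for miR-603 (SE, edgeR, adjusted p = 0.957) and -0.12 ± 0.23 for miR-548v (adjusted p = 0.748).

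In that unfiltered fit 7 of the 34 members were called higher in siAPE1 and none lower, where 9.77% of all 798 entries were called higher and 9.27% lower. At an unadjusted p under 0.05 the count was 12 higher and still none lower, where 16% of all entries were higher and 10.4% lower. The chromosome 19 cluster, which was also at background, gave 7 of 41 entries higher and none lower in the same fit, with a median log2 fold change of 0.32 against 0.38 for the miR-548 family. The 7 were miR-548q, miR-548e-5p, miR-548d-3p, miR-548ar-5p, miR-548n, miR-548l and miR-548h-5p. miR-548q had the largest change, 0.98 ± 0.20 on the log2 scale (SE, edgeR, adjusted p = 2.71e-05), and when each library was left out in turn with this scaling its adjusted p ran from 1.54e-05 to 0.0110. miR-548e-5p gave 64, 43 and 60 raw counts in siAPE1 and 46, 47 and 34 in siSCR, and changed by 0.69 ± 0.21 (adjusted p = 0.00888). The groups overlapped in raw counts, as they did for all of the remaining 5.

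The raw counts of miR-548d-3p were 37, 36 and 29 in siAPE1 and 21, 32 and 15 in siSCR, with a fitted change of 0.88. Those of miR-548n were 35, 25 and 31 in siAPE1 and 18, 20 and 25 in siSCR, with a change of 0.81. miR-548l gave 25, 14 and 29 in siAPE1 and 13, 13 and 20 in siSCR (0.85), and miR-548h-5p gave 26, 17 and 19 in siAPE1 and 19, 17 and 8 in siSCR (0.79). All 4 stayed below the background limit in every library.

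The scaling moved these values together with the background. The negative-control mean was 29.0 ± 2.01 raw counts in siAPE1 and 26.6 ± 2.41 in siSCR, and after scaling 31.9 ± 2.18 in siAPE1 and 24.4 ± 4.50 in siSCR (SD, n = 3 each). With this scaling the median log2 ratio of siAPE1 over siSCR was 0.38 for the 8 negative controls and 0.34 for the 32 members near background. With positive controls alone it was -0.01 for the negative controls and -0.07 for the members, and with the total miRNA count it was 0.62 for the negative controls and 0.58 for the members. The negative controls ranged from -0.20 to 0.86 with the scaling used throughout, and 2 of the 32 members, miR-548q and miR-548d-3p, lay above that range. With positive controls alone, the total count or raw counts, miR-548q was the only member above all 8 negative controls, and none lay below all 8 with any of these.

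**Figure D4:**
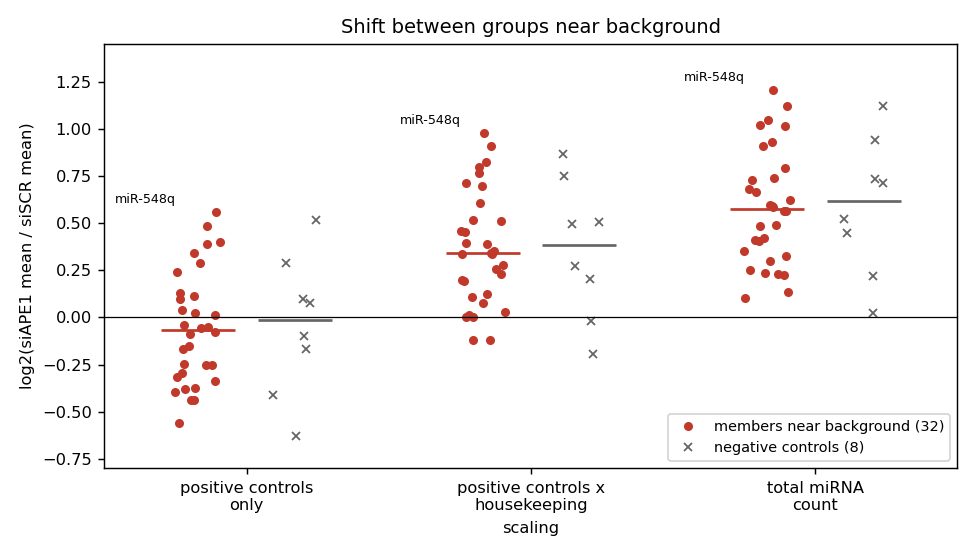
Log2 ratio of the siAPE1 mean over the siSCR mean (y axis) for the 32 members near background (circles) and the 8 negative controls (crosses) under 3 scalings (x axis), with horizontal bars at the medians. Members and negative controls move together, with medians of -0.07 and -0.01, 0.34 and 0.38, and 0.58 and 0.62, and miR-548q is the highest point each time.

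With positive controls alone and no filter, 0.752% of the 798 entries were called higher and 19.9% lower. Only miR-548q of the 34 members was then called higher (0.56 ± 0.23 on the log2 scale, edgeR, adjusted p = 0.0772), and none was called lower. No library was left out in that fit. With the total miRNA count and no filter, 20 of the 34 members were called higher, where 39.2% of all entries were. With the limit taken without NEG_C, 5 of the 14 members tested were called higher, where 13.8% of the 289 entries tested were. The median fitted change of the 34 members was 0.38 with the scaling used throughout, where that of all other entries was 0.21, and -0.05 with positive controls alone, where that of the others was -0.21.

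The same dependence was seen in the separation of the groups. On scaled counts 9 of the 34 members had every siAPE1 library above every siSCR library, and none the reverse, where 17.3% of all entries separated upward and 11% downward. With positive controls alone 1 member separated upward, miR-548q, and 1 downward, the combined entry of miR-548aa and miR-548t-3p, where 1.75% of all entries separated upward and 24.9% downward. The combined entry gave 34, 33 and 30 raw counts in siAPE1 and 35, 48 and 35 in siSCR, and it never passed the limit.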

How the data were processed

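The deposited raw counts per probe of 6 nCounter libraries were used as the authors supplied them, without correction. A second table deposited by the authors holds values that are a score. Its 24 control rows per library equalled the raw counts, and 44.9% to 60.3% of its miRNA values were 0. For 126 miRNAs well above 0 in every library the score was a straight line of the count. Each miRNA had its own line (slopes of 0.761 to 1.26), which was the same in all libraries. For these miRNAs the score thus carried no visible scaling between libraries. The score table served as an alternative. The methods name NanoStringDiff for normalization, which was not run here. Scaling factors were the positive-control factor times the housekeeping factor (0.817 to 0.958 in siAPE1, 0.884 to 1.34 in siSCR). Scaled counts keep the background. miRNAs above the negative-control mean plus 2 SD in at least 3 of 6 libraries were tested with edgeR 4.0.16 (robust quasi-likelihood, two-sided, Benjamini-Hochberg over all tested, threshold 0.1) in R 4.3.3. The SE beside an edgeR fold change was derived, as the absolute log2 fold change divided by the square root of the F statistic of the test. Alternatives used limma 3.58.1 and DESeq2 1.42.0. The fit was tested on simulated data. Members, comparison lists and markers were chosen with earlier results of these data known. Library values are given for members above the limit in at least 1 library and members called without a filter, and others are given by range. Further members are named for their hairpin, seed or sequence, or for their level or separation, and these were chosen after their values were seen. The chromosome 19 list leaves out miR-513 and miR-514, which lie elsewhere. Host genes are those whose RefSeq bounds contain the miRNA.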

Additional observations from a re-analysis of the deposited data

How the results depend on the processing

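The number of members called higher in siAPE1 was 1 in the filtered fit. With no filter it was 7, where 9.77% of all 798 entries were called higher. With the limit taken without the highest negative control it was 5, where 13.8% of the 289 entries tested were. It was 0 with positive controls alone and with the authors' table (limma), and between 0 and 1 when each library was left out in turn. The 0 arose without siSCR replicate 1. No member was called lower under any setting. Without a filter the 7 became 1 with positive controls alone and 20 with the total miRNA count. In those fits 0.752% and 39.2% of all 798 entries were called higher. The 7 became 3 to 9 when each library was left out, with 3 without siAPE1 replicate 1, siAPE1 replicate 3 or siSCR replicate 2. Without siSCR replicate 1 there were 4. These unfiltered alternatives were chosen after seeing the data. The number of members above background was 2, and it was 14 without the highest negative control and 5 when 1 library sufficed. miR-548ar-5p kept its direction under every setting, with 0.27 (adjusted p = 0.288) in the authors' table. The 7 members called without a filter also had positive log2 fold changes with positive controls alone. They had been called in the same data with changes of 0.49 to 0.98. The median of the 34 members moved from 0.38 to -0.05 with that scaling, so the kept signs are no separate support. Of the 20 called with the total miRNA count, 7 had a negative log2 fold change with positive controls alone. The labels do not say whether the replicate numbers pair the libraries. Deviations from the group means correlated at -0.59, -0.01 and -0.49 between libraries of the same number. Within a group the deviations cancel out, so these correlations depend on each other. They cannot show whether libraries of the same number were handled together. Across numbers the correlation was 0.61 between siAPE1 replicate 1 and siSCR replicate 3, and 0.47 between siAPE1 replicate 3 and siSCR replicate 1. The remaining ones ran from -0.18 to 0.18. What these libraries share was not tested, and no fit with such a pairing was run. With the replicate block all calls numbered 116 in place of 92, and the members called higher stayed at 1 (9 in place of 7 without a filter). Near background the counts of the negative controls limit what can be told apart, and with 3 libraries a group no exact test goes below 0.1.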
